A study of Mus musculus with 7 samples.

Results

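Thyroid hormone signalling was described here through 6 mouse genes: Thra and Thrb, which encode the nuclear receptors of the hormone, Dio2, which encodes an enzyme that activates it, Crym, which encodes a protein that binds it in the cytosol, and Hr and Klf9, which are textbook target genes. The members were taken by name, as the 6 rows of 36666 gene rows with exactly these symbols and the 17 of 86425 exon rows that start with one of them (10 of Thra and 7 of Crym). Messenger RNA of the cerebral cortex of C57BL/6 mice was sequenced in 4 embryonic samples of age E17 and 3 samples that the labels call adult and the design text young adult, with no age given for them. No treatment or genetic change is named in the labels for either group. The study compared the transcriptome between these 2 stages. The sources do not say whether each sample came from 1 animal or whether cortices were pooled, so every p-value reflects only how far these samples spread, which may be technical.

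Thyroid hormone is released mainly as thyroxine, a prohormone that must lose an iodine atom to become triiodothyronine, the form with high affinity for the nuclear receptors. The receptors sit on DNA with retinoid X receptors, recruit corepressors when empty and exchange them for coactivators when hormone is bound. In the brain the deiodinase Dio2, known chiefly from astrocytes and tanycytes, supplies much of the triiodothyronine, and the hormone is needed for cortical lamination, myelination and the maturation of neurons.

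Thra gives rise to more than a single receptor protein, and the exon rows bear on this, so the place where its coding sequences part is shown first. In the reference annotation (GENCODE M21 on GRCm38, chromosome 11, plus strand), the transcripts Thra-201 and Thra-202 share their first 1110 coding bases, which encode 370 residues. Thra-202 ends after a further 120 bases and encodes the hormone-binding receptor of 410 residues. Thra-201 instead splices to an extra last exon, reads 366 coding bases of its own and encodes a variant of 492 residues that is known not to bind the hormone. Each line gives the last 30 shared coding bases in lower case and the first 90 bases particular to that transcript in capitals, 5′ to 3′.

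Thra-201: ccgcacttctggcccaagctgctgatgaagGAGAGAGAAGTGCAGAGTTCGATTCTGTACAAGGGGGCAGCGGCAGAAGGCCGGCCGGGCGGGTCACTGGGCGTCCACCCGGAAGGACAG
Thra-202: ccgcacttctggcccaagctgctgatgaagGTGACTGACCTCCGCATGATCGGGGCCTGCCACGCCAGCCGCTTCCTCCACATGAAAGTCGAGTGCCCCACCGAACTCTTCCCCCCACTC

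Of the 6 genes, 3 (Thrb, Dio2 and Klf9, all higher in adult cortex) had promoter windows in the RefSeq table used (GRCm38.p6), with 4 windows in all. They are printed from 250 bases before a transcription start to the base before it, 5′ to 3′ on the gene's strand, as the members for which the table holds this sequence. Capitals mark a match to AGGTCA, the half-site to which thyroid hormone receptors bind, in Thrb promoter 1, a TATA box (TATAAA) in Thrb promoter 2, a cyclic AMP response element (TGACGTCA) and a TATA box (TATAAA) in Dio2, and CCAAT boxes (CCAAT, or ATTGG on the other strand) in Klf9. The windows lie at chr14:17660710-17660959 (plus strand), chr14:17981394-17981643 (plus), chr12:90739039-90739288 (minus) and chr19:23140976-23141225 (plus).

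Thrb promoter 1: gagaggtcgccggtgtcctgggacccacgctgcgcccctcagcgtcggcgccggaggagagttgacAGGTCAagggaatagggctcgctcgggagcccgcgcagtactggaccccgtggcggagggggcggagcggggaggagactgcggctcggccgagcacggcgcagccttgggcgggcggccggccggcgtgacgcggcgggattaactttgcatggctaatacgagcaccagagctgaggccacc
Thrb promoter 2: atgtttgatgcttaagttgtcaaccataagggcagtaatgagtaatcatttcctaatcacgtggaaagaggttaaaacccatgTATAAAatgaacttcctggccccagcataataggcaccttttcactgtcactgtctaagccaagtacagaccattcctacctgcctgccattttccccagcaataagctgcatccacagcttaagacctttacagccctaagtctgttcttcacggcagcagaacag
Dio2 promoter: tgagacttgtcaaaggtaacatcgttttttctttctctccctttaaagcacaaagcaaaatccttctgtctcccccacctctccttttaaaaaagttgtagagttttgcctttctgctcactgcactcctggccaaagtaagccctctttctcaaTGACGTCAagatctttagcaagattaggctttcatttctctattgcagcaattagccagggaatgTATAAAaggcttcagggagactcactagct
Klf9 promoter: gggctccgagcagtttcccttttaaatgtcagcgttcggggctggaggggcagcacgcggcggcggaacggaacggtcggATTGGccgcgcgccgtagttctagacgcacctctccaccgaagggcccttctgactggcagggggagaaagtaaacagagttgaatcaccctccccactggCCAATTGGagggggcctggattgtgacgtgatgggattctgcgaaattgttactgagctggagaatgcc

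Both strands of each window were searched for 6 motifs. The half-site AGGTCA was found once, ending 179 bases before the start in Thrb promoter 1, and occurs in 14% of the 32851 windows of the same length in the table. The direct repeat of this half-site with any 4 bases between, the classical arrangement for receptor dimers, was in none of the 4 windows and is in 0.0152% of all windows. TGACGTCA, 88 bases before the start of Dio2, occurs in 1.55% of windows. TATAAA, 25 bases before the start of Dio2 and 162 before that of Thrb promoter 2, occurs in 12.4%. GGGCGG, which is not capitalised, had 3 matches in Thrb promoter 1 and occurs in 32.7% of windows. CCAAT had 3 matches in the Klf9 window, 2 of which overlap each other on opposite strands, and occurs in 33.8%. These matches describe letters only.

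The libraries held 18444275 to 23606526 reads in genes. The deposited gene values are variance-stabilized and log2-like, whole read counts were recovered from their steps, and levels are given as CPM, recovered reads per 1000000 reads in genes of that sample. Differences are adult minus embryonic on the deposited scale, from limma across all genes, with Benjamini-Hochberg adjusted p and a threshold of 0.05. The stages differed widely: 69.7% of the 22828 genes tested passed, 35.8% as higher and 33.9% as lower in the adult, with a median difference over all genes of 0.03. All 6 members passed, 5 of them higher and Thra lower, with a median difference of 2.53. In CPM the groups did not overlap for any of the 6 members, against 69.4% of genes (33% with higher and 36.3% with lower adult samples). In bulk tissue, fewer cells of a type and less RNA per cell cannot be told apart. Summed markers of cortical neurons were 1625 to 1726 CPM in embryonic and 1573 to 1686 CPM in adult samples, with 1 of the 6 genes higher and 5 lower, so the tissue label fits both groups.

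The receptor genes went in opposite directions. Thra was the most abundant member at both stages, with 903.2, 944.0, 1092 and 903.9 CPM in embryonic replicates 1 to 4 and 694.5, 781.2 and 776.9 CPM in adult replicates 1 to 3. Every adult sample lay below every embryonic sample, and adult replicate 1 was the lowest. The means were 960.9 ± 89.78 (SD, n = 4) and 750.9 ± 48.86 CPM (SD, n = 3), a 1.28-fold lower level in adult cortex. The difference of -0.27 (SE 0.09, 95% interval -0.46 to -0.08) passed in limma with an adjusted p of 0.0142. It lost its call without adult replicate 1 (-0.21, adjusted p = 0.0724), and ranged from -0.45 to -0.20 over 12 other settings. The counting is not stated to use strand, and the last exon of Thra overlaps the clock gene Nr1d1 on the other strand, so reads of the pair cannot be told apart there.

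Thrb, the second receptor gene, was scarce in embryonic cortex and rose. Its levels were 3.036, 2.658, 3.011 and 3.373 CPM in the embryonic samples, from 56 to 73 reads, and 59.74, 47.02 and 54.68 CPM in the adult samples. The groups lay far apart, with adult replicate 2 the lowest adult sample. The means of 3.02 ± 0.292 (SD, n = 4) and 53.81 ± 6.40 CPM (SD, n = 3) differ 17.8-fold. The difference was 3.98 (SE 0.11, 95% interval 3.74 to 4.22, adjusted p = 1.79e-12 in limma), the 359th largest of all genes tested.

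Within each sample, the levels of the receptor genes lay closer together in the adult group. Thrb minus Thra on the deposited scale was -7.94, -8.17, -8.23 and -7.81 in the embryonic samples and -3.52, -4.03 and -3.81 in the adult samples. The 2 groups were separate, with means of -8.04 ± 0.20 (SD, n = 4) and -3.79 ± 0.26 (SD, n = 3). The difference of 4.25 had p = 0.0571 in a two-sided exact permutation test over 35 arrangements of the samples that doubles the smaller tail, the smallest p that such doubling can give here. Counted by absolute difference, a way added after seeing the data, the exact permutation p was 0.0286, again the smallest that this count can give. Per 1000 exon bases, Thra exceeded Thrb 634.6-, 757.5-, 773.8- and 571.5-fold in the embryonic samples and 24.8-, 35.44- and 30.31-fold in the adult samples. Thra was the more abundant receptor transcript in each of the 7 samples.

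**Figure D1:**
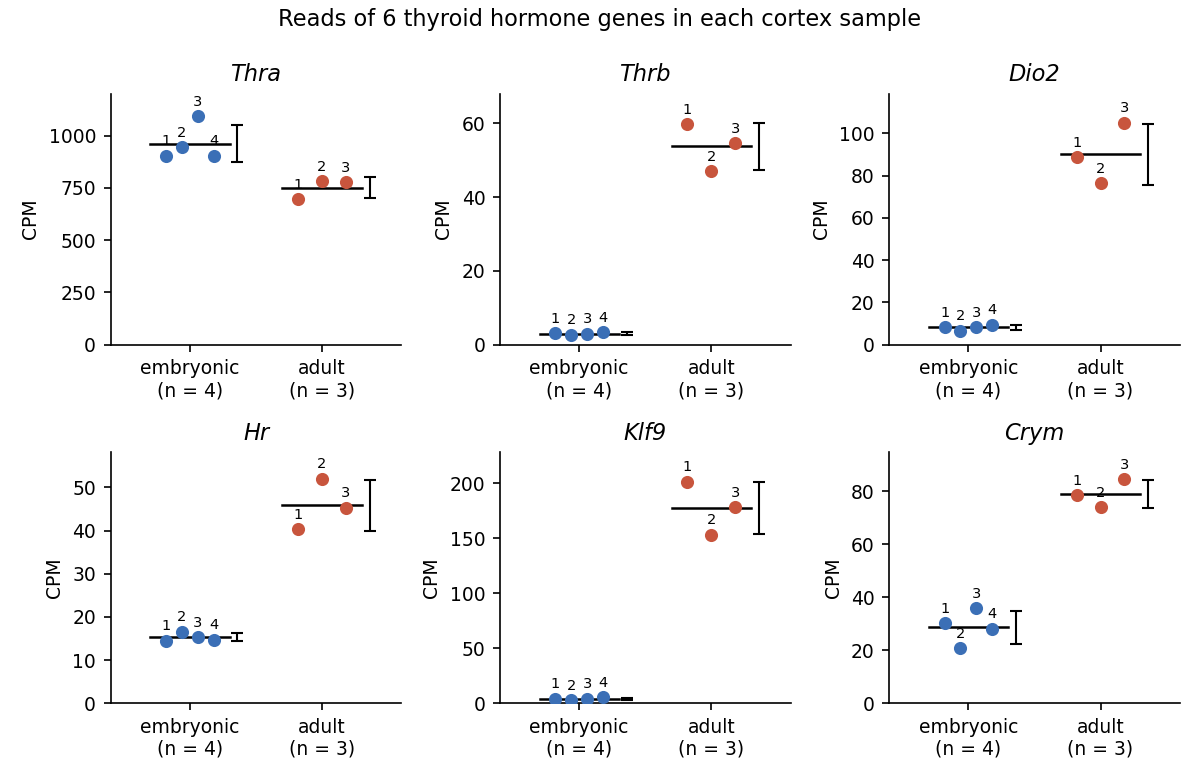
Level of each of the 6 genes in every sample (CPM, linear axes), with embryonic samples in blue, adult samples in red and bars at the group means. Thra is the gene whose adult points (694.5 to 781.2 CPM) lie below its embryonic points, and the other 5 genes have every adult point above every embryonic point.

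Dio2, which converts thyroxine to triiodothyronine, rose. Embryonic samples had 8.295, 6.556, 8.234 and 9.426 CPM and adult samples 88.8, 76.38 and 105.1 CPM. No adult sample came near the embryonic range, and adult replicate 3 was the highest. The means were 8.13 ± 1.18 (SD, n = 4) and 90.09 ± 14.4 CPM (SD, n = 3), an 11.1-fold higher level, with a difference of 3.44 (SE 0.13, adjusted p = 1.85e-11 in limma). Astrocyte markers, from the cells best known for Dio2, moved with it: 9 of 9 rose, from a summed 399.1 to 413.0 CPM in embryonic to 5582 to 6637 CPM in adult samples. Adult replicate 2, the lowest of the adults for Dio2, also had their lowest sum, and whether the Dio2 difference follows the share of astrocytes was not tested. Markers of the hypothalamus and its tanycytes summed to 2.682 to 3.322 CPM in embryonic samples and to 14.57, 47.87 and 5.322 CPM in adult replicates 1 to 3. Of these 8 genes 5 rose, 1 fell, 1 did not pass, and Rax, a tanycyte transcription factor, was at 0 in the embryonic samples and had 2, 0 and 0 reads in the adult samples. The part of such tissue in the Dio2 difference was not tested.

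Crym encodes mu-crystallin, which holds triiodothyronine in the cytosol. It had 30.14, 20.64, 35.81 and 28.09 CPM in embryonic and 78.46, 73.88 and 84.5 CPM in adult samples. The adult samples were close together, while the embryonic ones spread from the lowest in replicate 2 to the highest in replicate 3, without reaching the adult range. Crym rose 2.75-fold, from 28.67 ± 6.27 (SD, n = 4) to 78.94 ± 5.33 CPM (SD, n = 3), with a difference of 1.54 (SE 0.14, adjusted p = 2.48e-07 in limma). Summed striatal markers, 113.2 to 120.4 CPM in embryonic and 929.6 to 1048 CPM in adult samples with 8 of 8 higher, moved the same way, and their part in the differences of the members was not tested.

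Klf9, a zinc finger transcription factor that responds to thyroid hormone and to glucocorticoids, had the largest difference of the 6 genes. Its embryonic levels were 4.066, 2.613, 3.999 and 5.268 CPM, from 59 to 114 reads, and its adult levels were 201.2, 153.1 and 178.0 CPM. Adult replicate 1 was the highest sample and adult replicate 2 the lowest adult. The rise from 3.99 ± 1.09 (SD, n = 4) to 177.4 ± 24.02 CPM (SD, n = 3) was 44.5-fold. The difference of 5.37 (SE 0.16, adjusted p = 3.58e-12 in limma) was the 97th largest of the 22828 genes tested.

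Hr, the nuclear corepressor named hairless and an early target of the hormone in the brain, rose less. It had 14.48, 16.52, 15.34 and 14.69 CPM in embryonic and 40.28, 52.02 and 45.31 CPM in adult samples. Unlike the other 4 genes that rose, Hr was highest in adult replicate 2, and no adult sample reached down to the embryonic range. The 3.01-fold rise from 15.26 ± 0.919 (SD, n = 4) to 45.87 ± 5.89 CPM (SD, n = 3) gave a difference of 1.62 (SE 0.10, adjusted p = 4.99e-09 in limma).

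Levels of different genes can be compared only per length, and were set per 1000 bases of merged exon sequence in GENCODE M21, which may differ from the authors' gene models. In embryonic cortex the order was Thra (304.3), Crym (20.73), Hr (2.28), Dio2 (1.398), Klf9 (0.889) and Thrb (0.448 CPM per 1000 bases). Dio2 and Klf9 overlapped between samples, and the other neighbours in that order did not. In adult cortex the order was Thra (237.8), Crym (57.08), Klf9 (39.55), Dio2 (15.49), Thrb (7.99) and Hr (6.84 CPM per 1000 bases). There Thrb and Hr overlapped and the other neighbours did not. Klf9 thus stood below Hr in embryonic and above it in adult samples, and Thrb, in last place before, came to overlap Hr.

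**Figure D2:**
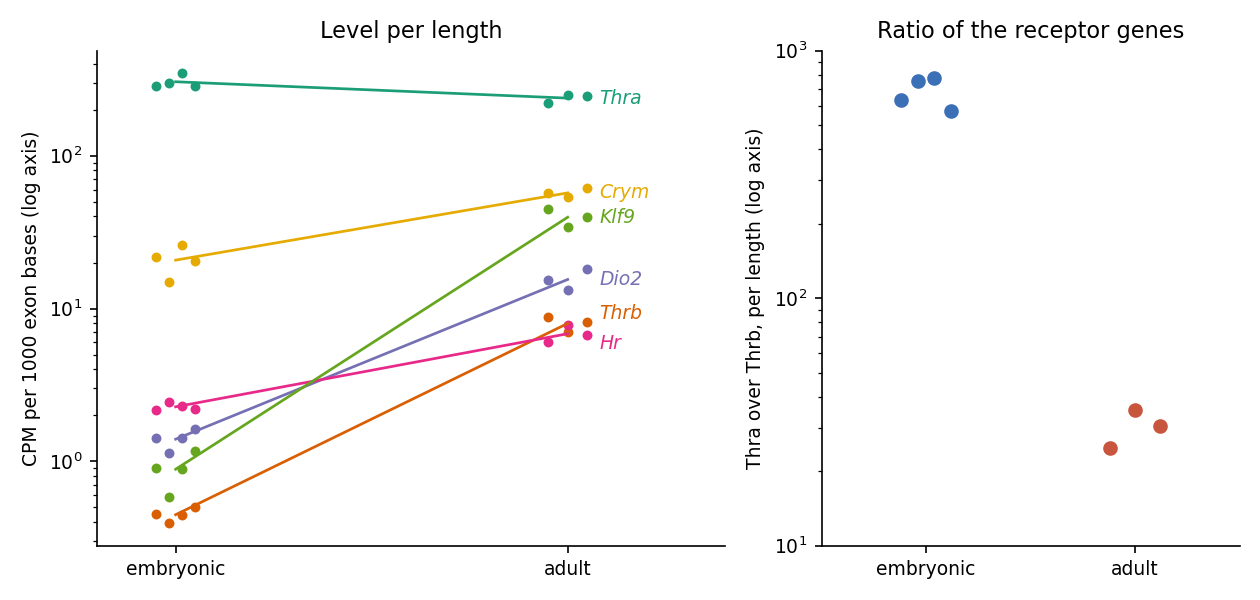
Left, the level of each gene per 1000 exon bases (CPM per 1000 bases, log axis) by stage, with a point per sample and a line joining the group means. Right, the ratio of Thra to Thrb per length in each sample (log axis), which lies between 571.5 and 773.8 in embryonic and between 24.8 and 35.44 in adult samples.

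The exon table holds, for each exon row, a transform of the gene's reads divided by the exon's reads, rounded to a whole number, so a higher value stands for a smaller part of the gene. Shares here are 100 divided by that whole number, in percent, and steps between neighbouring whole numbers set their resolution. They are not parts of a whole, as those of the Thra rows, and of the Crym rows, add to more than 100% in each sample. The reason was not tested. The limma exon test, which sets an exon beside the rest of its gene, passed 4.79% of 86181 exons across all genes, 2.65% with a higher and 2.15% with a lower share in adult cortex. None of the 10 Thra rows passed, with adjusted p from 0.0697 to 0.962, and 1 had an unadjusted p below 0.05. The rows were matched to GENCODE exons by the equal spacing of their starts: 9 of the 10 starts match Thra-201 and 9 match Thra-202. All starts are on chromosome 11 of mm9.

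Exon 10, with its start at 98629471, is present in Thra-201 and absent from Thra-202, and ends the variant that does not bind the hormone. A further transcript, Thra-203, also has the 128-base exon before it and another last exon whose start matched no row. Gene reads were 6, 6, 7 and 6 times the exon's reads in the embryonic samples and 6, 5 and 6 times in the adult samples. The groups overlapped, with the share of embryonic replicate 3 a step below the common value and that of adult replicate 2 a step above it. The shares were 16.07 ± 1.19% (SD, n = 4) and 17.78 ± 1.93% (SD, n = 3), and the difference against the other Thra exons had an adjusted p of 0.962 in limma. Of the 850 bases of this exon, 263 are shared with Nr1d1, which rose from 11.35 ± 1.32 to 107.8 ± 15.62 CPM. The part of Nr1d1 reads in this share was not tested.

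Exon 9 starts at 98625592 in both transcripts and is 128 bases long in Thra-201, while in Thra-202 it runs on for 834 bases and holds the end of the hormone-binding receptor. The ratios were 8, 8, 8 and 7 in the embryonic samples and 7, 8 and 8 in the adult samples, which overlap. The shares of 12.95 ± 0.893% and 13.10 ± 1.03% had an adjusted p of 0.884 in limma. A start position alone does not say which of the 2 lengths the row covers. At this resolution, no difference between the stages in the balance of the 2 Thra ends was detectable.

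The lowest p among the Thra rows came from exon 1 of Thra-202 at 98603187, an exon of 134 bases with no coding sequence. It held a small share of the gene's reads, 1.449, 1.351, 1.149 and 1.299% in the embryonic samples and 2.222, 1.695 and 1.25% in the adult samples. Adult replicate 3 lay within the embryonic range, and the other adult samples lay above it. The value differed from the other Thra exons by -0.71 (SE 0.24, adjusted p = 0.0697 in limma), where a negative value is a larger adult share. Without adult replicate 3, the adult sample within the embryonic range, the difference was -1.17 with an adjusted p of 0.000468 in limma. More exons of all genes also passed without that sample, 3550 with a higher and 3091 with a lower share, against 2280 and 1849.

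Exon 2, which starts at 98614604 and carries the start codon, was the only Thra row whose groups did not overlap, against 8.95% of the 82488 exon rows compared in this way. The ratios were 9, 10, 10 and 10 in the embryonic and 8 in each adult sample, or shares of 10.28 ± 0.555% and 12.5%. It did not pass (adjusted p = 0.38 in limma). Exons 6 and 8, at 98623035 and 98624843, had the same ratio in all 7 samples, 4 and 7 respectively, and the remaining rows differed by at most 3 steps between any samples.

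**Figure D3:**
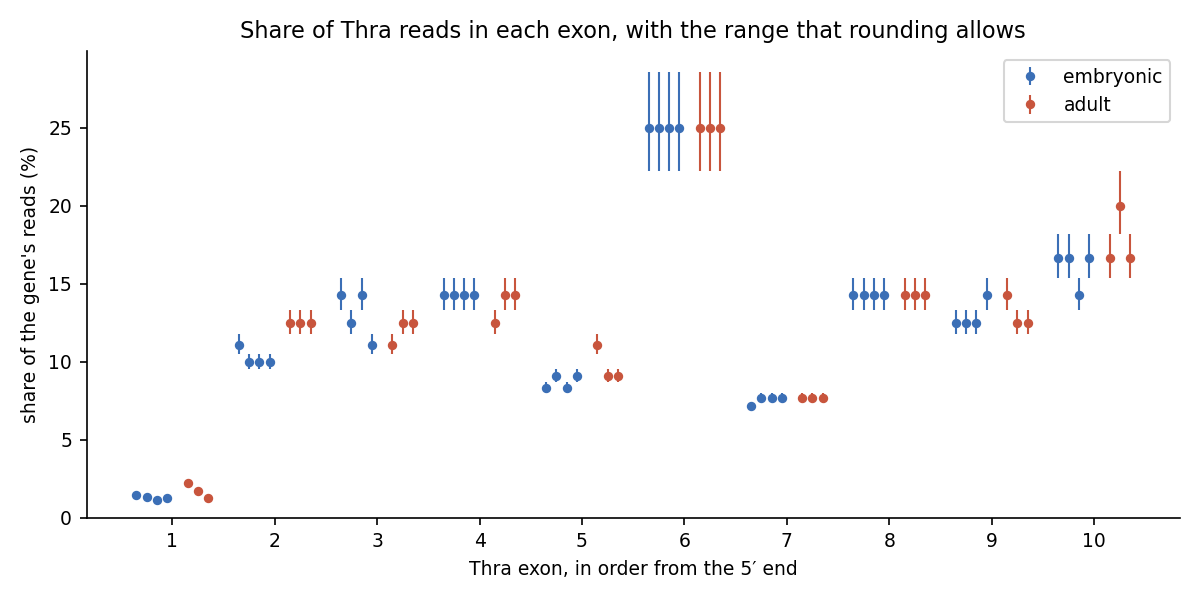
Share of the reads of Thra (percent) in each of its 10 exon rows, in the order of the gene, with a point per sample in blue (embryonic) or red (adult) and bars for the range that rounding allows. The shares are not parts of a whole. Exon 2 is the only row whose groups do not overlap, and exon 10, which Thra-201 has and Thra-202 lacks, lies between 14.29 and 20% in all samples.

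Crym had 7 exon rows, none of which passed, with adjusted p from 0.62 to 1. The smallest p belonged to exon 6 of Crym-201, which starts at 127333966 on chromosome 7 of mm9 and is 122 bases long. Gene reads were 5, 7, 6 and 6 times its reads in the embryonic samples and 5 times in each adult sample, so embryonic replicate 1 met the adult value. Thrb, Dio2, Hr and Klf9 have no exon rows in the table.

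Other genes of the pathway were taken from lists by role, 53 genes in all. Of the 50 tested, 27 rose, 13 fell and 10 did not pass, with a median difference of 0.47 against 0.03 for all genes. Over all genes tested, 35.8% rose and 33.9% fell. Among the 6 transporters tested, 4 rose. Slco1c1, the thyroxine transporter of brain vessels and astrocytes, rose from 28.21 ± 3.40 to 42.67 ± 4.76 CPM (0.67, adjusted p = 7.62e-05 in limma). Slc7a8, an amino acid transporter that also carries thyroid hormone, rose from 27.32 ± 2.75 to 80.22 ± 2.13 CPM, and the related Slc7a5 fell from 109.4 ± 1.61 to 74.41 ± 3.49 CPM. Endothelial markers summed to 114.6 to 127.5 CPM in embryonic and 265.6 to 280.1 CPM in adult samples, with 6 of 8 higher and 1 lower, and their part in the transporter differences was not tested.

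Of the serum carriers of the hormone, Ttr (transthyretin) had 0, 5, 4 and 8 reads in the embryonic samples and 14707, 15200 and 12000 reads in the adult samples. Its difference was 10.82 (adjusted p = 2.78e-10 in limma). Ttr is also 1 of the 7 choroid plexus markers, all of which rose. Their sum went from 2.494 to 4.385 CPM in embryonic to 730.6, 713.8 and 593.3 CPM in adult replicates 1 to 3. Most of the adult sum was Ttr itself, with 641.7, 643.9 and 527.8 CPM. Transcripts of cortex and of attached choroid plexus cannot be told apart. Alb and Serpina7 were not tested, and Serpina7 was at 0 in all samples.

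Dio3, the deiodinase that inactivates the hormone, had 2.874, 2.835, 2.306 and 2.172 CPM in the embryonic and 1.876, 3.135 and 1.496 CPM in the adult samples. The groups overlapped, and the difference of -0.17 (95% interval -0.62 to 0.28) did not pass (adjusted p = 0.487 in limma). Dio1, the third deiodinase, had 1 read over all 7 samples. Wsb1, part of a ubiquitin ligase that marks Dio2 protein for removal, fell from 307.4 ± 24.27 to 73.58 ± 3.202 CPM (-1.96, adjusted p = 3.86e-11). Usp20, which removes that mark, rose from 58.52 ± 4.15 to 92.32 ± 4.10 CPM. Secisbp2, needed to insert selenocysteine into the deiodinases, fell from 26.09 ± 1.54 to 19.24 ± 2.06 CPM.

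Among the partners of the receptors, Rxra rose from 18.18 ± 2.36 to 40.13 ± 1.26 CPM (1.199, adjusted p = 1.38e-07 in limma), and the other 2 retinoid X receptor genes did not pass. Rxrg had 20.3 ± 3.77 and 15.2 ± 2.82 CPM (-0.31, adjusted p = 0.0817), and passed as lower without embryonic replicate 4 (-0.44, adjusted p = 0.0136) or adult replicate 2 (-0.45, adjusted p = 0.0195). Of 6 corepressor genes 3 fell and 2 did not pass, with a median of -0.29. Gps2 fell from 34.14 ± 0.894 to 17.76 ± 0.686 CPM and Tbl1x from 135.3 ± 8.98 to 75.28 ± 4.60 CPM, both subunits of the corepressor complex. Its scaffold Ncor1 had 299.4 ± 25.43 and 249.8 ± 8.75 CPM (-0.17, adjusted p = 0.0681), and passed as lower without embryonic replicate 3 (-0.23, adjusted p = 0.00962).

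Of 9 coactivator genes 3 rose, 4 fell and 2 did not pass. Ncoa6 fell from 161.0 ± 11.6 to 82.33 ± 0.935 CPM and the acetyltransferase gene Crebbp from 146.6 ± 17.29 to 85.22 ± 5.11 CPM. Ppargc1a, a coactivator known from mitochondrial biogenesis, rose from 14.75 ± 2.20 to 57.04 ± 6.75 CPM (1.98, adjusted p = 1.82e-09 in limma). Kat2b rose from 14.3 ± 2.68 to 17.79 ± 0.504 CPM (0.40, adjusted p = 0.0143), a call lost when samples were centred on their medians (0.22, adjusted p = 0.146). Both genes of the integrin that binds thyroxine at the cell surface rose, Itgav from 14.97 ± 3.70 to 97.85 ± 16.57 CPM and Itgb3 from 1.86 ± 0.0846 to 5.38 ± 1.07 CPM.

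Of 7 genes of the thyroid axis, 4 rose, 1 fell and 2 did not pass, all at low levels. Slc5a5, the iodide transporter of the thyroid gland, rose from 0.804 ± 0.23 to 17.89 ± 2.42 CPM (4.002, adjusted p = 1.48e-10 in limma), and Trh, the hypothalamic releasing hormone, from 0.525 ± 0.16 to 6.25 ± 1.68 CPM. The adult samples had 6.414, 7.837 and 4.487 CPM of Trh, in the same order as the summed hypothalamic markers given above (14.57, 47.87 and 5.322 CPM), whose part in the rise was not tested. Tshr, the thyrotropin receptor, fell from 2.76 ± 0.911 to 0.591 ± 0.121 CPM.

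**Figure D4:**
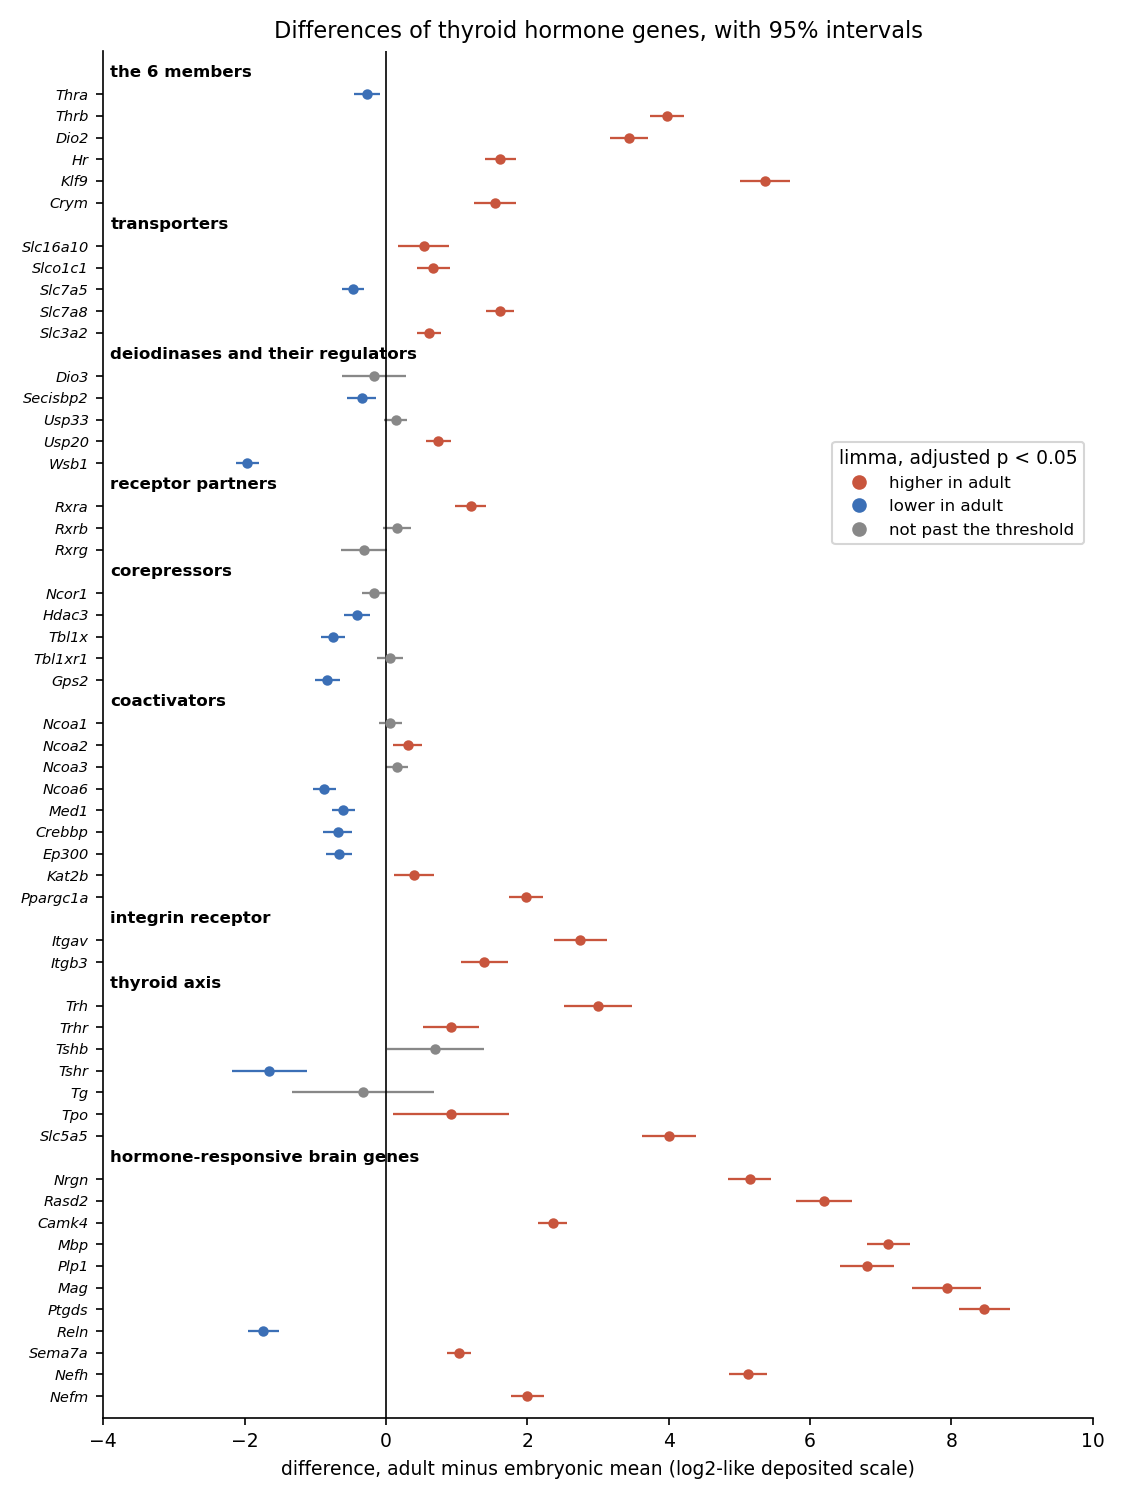
Difference of the members and of genes of the pathway lists (adult minus embryonic mean on the log2-like deposited scale), as a point with its 95% interval from limma, red where higher, blue where lower and grey where not past an adjusted p of 0.05. The serum carrier Ttr, at 10.82, is outside the range drawn, and the members run from -0.27 for Thra to 5.37 for Klf9.

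Among 11 brain genes known to respond to the hormone, chosen apart from Hr and Klf9, 10 rose and 1 fell, with a median of 5.15. Of all genes tested, 35.8% rose and 33.9% fell. The list was chosen with earlier results of these data known. Ptgds, prostaglandin D synthase, rose from 1.05 ± 0.274 to 510.9 ± 120.3 CPM, and Mag, a myelin glycoprotein, from 0.51 ± 0.182 to 211.4 ± 82.77 CPM. Reln, the secreted guide of cortical layering, fell from 368.4 ± 48.45 to 103.3 ± 10.17 CPM (-1.74, adjusted p = 2.54e-09 in limma). Several of these are myelin genes, and the 7 oligodendrocyte markers, 3 of which are on this list, rose from a summed 49.17 to 52.41 CPM to 4071 to 7267 CPM, with all 7 highest in adult replicate 2. Their part in this list's difference was not tested.

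Klf9 also belongs to the Krüppel-like family, and of the 13 other family genes on the list 7 rose, 5 fell and 1 did not pass, with a median of 1.09. Next to the 5.37 of Klf9, Klf15 (1.82) and Klf10 (1.74) rose the most, and Klf8 (-2.21) and Klf11 (-1.68) fell the most. Of 13 clock genes, 12 rose and 1 fell, with a median of 2.34. Beside both lists, 35.8% of all genes tested rose and 33.9% fell. Dbp, a clock output factor, rose from 3.07 ± 0.339 to 45.25 ± 5.14 CPM, and Cry1, a clock repressor, fell from 22.68 ± 1.31 to 17.33 ± 3.84 CPM (-0.31, adjusted p = 0.0342 in limma). The Cry1 call was lost without embryonic replicate 1, 2 or 4 (adjusted p = 0.068, 0.0636 and 0.0871) and without adult replicate 2 or 3 (adjusted p = 0.178 and 0.103). The labels give no time of day for the samples.

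The adult samples differed among themselves in genes that respond to other signals. Summed glucocorticoid-responsive genes were 553.1, 255.2 and 468.6 CPM in adult replicates 1 to 3, against 150.7 to 155.3 CPM in embryonic samples, with 7 of 8 higher and 1 not past the threshold. Of these 8 genes 6 were lowest among the adults in adult replicate 2 and none was highest there. Plin4, a lipid droplet protein, had 68.51, 2.245 and 68.62 CPM, and Sgk1, a kinase, had 141.2, 46.81 and 92.28 CPM in the adult samples. Klf9, with 201.2, 153.1 and 178.0 CPM, was likewise lowest in adult replicate 2. Without that sample its difference was 5.46. Activity-regulated genes went the other way, with 482.8, 1360 and 340.2 CPM summed in the adult samples against 43.71 to 49.43 CPM in embryonic samples and all 10 highest in adult replicate 2. Of these 10 genes 9 rose and 1 did not pass, with the synaptic gene Arc at 5.89 and the transcription factor Egr4 at 5.78. Beside these 2 lists, 35.8% of all genes tested rose and 33.9% fell. Among the members, 4 (Thrb, Dio2, Klf9 and Crym) were lowest and 2 (Thra and Hr) highest among the adults in adult replicate 2. Of all 22828 genes tested, 8093 were lowest and 7171 highest among the adults in that sample. The part of glucocorticoid and activity signals in the members' differences was not tested.

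For each member, the 2 genes with the nearest pattern over the 7 samples were found by root mean square distance between values centred on each gene's mean. Thra was nearest to Nagk (0.029) and Dus3l (0.033), and Hr to Plod1 (0.034) and Sgsh (0.041). Dio2 was nearest to Ipcef1 (0.084) and Pdyn (0.098), and Crym to Ptgfr (0.1) and Hps6 (0.107). Thrb was nearest to Syne1 (0.102) and Cyp2d22 (0.111), and Klf9 to Rasgrp1 (0.153) and 2010300C02Rik (0.158). With 2 groups this far apart, these distances mainly compare the size of the difference between the stages.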

How the data were processed

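Cortical mRNA of 4 embryonic and 3 adult samples was sequenced. Per the submitters' processing notes, which give no roles or order, reads were handled with HTSeq 0.5.3p3, Bowtie 0.12.7.0, SAMtools 0.1.7a, TopHat 1.0.13 and CASAVA 1.7.1 on mm9. Neither strand use in counting nor the gene models are stated there. The deposited gene values are variance-stabilized, log2-like expression values. The deposited exon values are a score, a transform of the rounded ratio of gene reads to exon reads. Whole reads were recovered from the steps of the gene values (tested on simulated data; in each sample at least 99.915% of values above the lowest steps lay within 0.1 of a whole number) and gave CPM.

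limma 3.58.1 in R 4.3.3 was fitted to the deposited gene values of all 7 samples with a mean-variance trend. Rows at the lowest value in more than 3 samples were left out. Exons were tested with limma's diffSplice. The members and lists were chosen with earlier results of these data known. Named were all members and, from each list, the 2 called genes with the largest difference in each direction, plus Slco1c1, Dio3, Rxrg, Ncor1, Ttr and Nr1d1; some results under this rule are not reported here. Exons named were all of Thra and, with none called, the Crym exon with the smallest p. The closing section gives the alternatives tried. No sample pair within a group agreed within sampling noise (chi-square per degree of freedom 5.15 to 19.2).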

Additional observations from a re-analysis of the deposited data

Results flagged for a closer look

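Of 44 genes examined, the 6 members and the 38 other named genes, 2 had an embryonic sample far from the other 3, measured as its gap to the nearest sample divided by the whole range, beyond Dixon's 95% critical value. Chance alone gives such a sample in about 1 in 20 groups. Itgav had a ratio of 0.922, with embryonic replicate 3 at -5.381 and the others at -4.638, -4.615 and -4.575. In CPM these were 9.457 against 16.37, 16.65 and 17.37. Egr4 had a ratio of 0.864, with embryonic replicate 2 at -10.829 and the others at -9.69, -9.808 and -9.647. These values rest on 1 read against 4, 4 and 5 reads. None of the 6 members had such a sample. The cause was not tested.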

How the results depend on the processing

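Thrb, Dio2, Hr, Klf9 and Crym kept their direction and their call under all 12 alternatives. Thra kept its direction, but not its call, without the mean-variance trend (-0.27, adjusted p = 0.0544); the cause was not tested. Leaving out each replicate moved Thra between -0.30 and -0.20, with the call lost without adult replicate 1 (-0.21). Centring on sample medians moved the median of all genes from 0.03 to -0.16, and Thra was then at -0.45. The number of exons with a higher adult share was 2280, and with a lower share 1849. It was 888 and 822 with plain limma per exon, and 1391 to 3550 and 1318 to 3091 when each replicate was left out. The highest counts came without adult replicate 3, and the lowest without adult replicate 2. Thrb minus Thra, at 4.25, had an exact permutation p of 0.0571 with the smaller tail doubled and 0.0286 by absolute difference, a count added after seeing the data. Each is the smallest p that its way of counting can give here.

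The replicate numbers are shared between the stages but are not said to pair samples, and deviations of same-numbered samples had correlations of 0.009, 0.057 and 0.041. Each of these 3 embryonic samples correlated best with its own number. The largest correlation, 0.062, was between unlike numbers, adult replicate 1 and embryonic replicate 4. All were small, and whether samples are paired was not tested. With the replicate block, 8006 genes were higher and 7549 lower (8180 and 7736 without it), and Thra was at -0.30. Of other named genes, Rxrg became lower with the block (-0.44, adjusted p = 0.0152) and Cry1 lost its call (adjusted p = 0.0578).

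Dio3 ran from -0.43 (without adult replicate 2) to 0.027 (without adult replicate 3). Signs also turned for the Thra exons at 98624235 (-0.046) and 98625592 (-0.013) with plain limma, and for that at 98629471 without embryonic replicate 3 (0.013) or adult replicate 2 (0.077), all far from the threshold. Ncor1 became lower with centring (-0.35) and voom (-0.26), and so did Rxrg (-0.496 and -0.406). Kat2b lost its call with centring (0.22) and no trend (adjusted p = 0.0518). The whole-number steps limit what exon shares can resolve, and low embryonic counts of Thrb and Klf9 limit the precision of their folds.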
